A study of Mus musculus with 4 samples.

Results

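The regions described here are the ChIRP peaks of mouse chromosome 11 whose summit lies outside a block of very dense peaks between 101 and 106 Mb (mm10). They number 3551 of the 77823 peaks in the deposited list. A further 1624 peaks of chromosome 11 have their summit inside the block and are used here for comparison only, as are the 71854 peaks of the other 18 autosomes. The members were chosen by the position of their summits, with a block drawn where the measured peak density was high, so the contrast in density between the block and the rest of the chromosome comes from the choice itself and is given as a description.

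In ChIRP, chromatin isolation by RNA purification, biotin-labelled probes that pair with a chosen RNA pull it from sonicated nuclei, and the DNA that comes along is sequenced. The RNA was Malat1, and the cells were 4T1-TGL, a mouse breast cancer line of strain BALBC grown in DMEM/F12, with genotype WT in every group. The labels give 4 libraries: 1 pull-down titled Even, 1 titled Odd, 1 titled Lacz, the usual non-targeting control in ChIRP, and 1 titled as the Even input. The deposited peaks came from a single comparison of a merged treatment (988411 tags, 851227 after removal of duplicates) with an input (52861677 and 50030325), per the file headers. The pull-downs that were merged are not given in the sources used here. The libraries therefore cannot be compared with one another, no value below has a replicate error, and the intervals given cover counting error only.

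Malat1 is an abundant long noncoding RNA that stays in the nucleus and gathers at nuclear speckles, bodies rich in splicing factors that lie beside actively transcribed genes. In mammary tumours it has been studied for its part in growth and metastasis. Mouse chromosome 11 is gene-rich. Outside the block it carries the tumour suppressor Trp53, the receptor kinase Erbb2, and the Hoxb, alpha globin, type I keratin and CC chemokine clusters.

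Few of the peaks lay at a promoter, but promoters make up little of the chromosome. The windows below are 2155 stretches of 300 bases, some of them overlapping, on 116.98 Mb. They held the summits of 27 of the 3551 peaks, a count that does not show that promoters were avoided. The RefSeq promoter table of GRCm38.p6 gives, for each gene start, a window of 250 bases before it and 50 after it. Of 2155 such windows on chromosome 11 outside the block, 29 held a summit (1.35%, 95% Wilson interval 0.939 to 1.93), against 386 of 29076 (1.33%) on the 17 other autosomes in the table. They involved 27 distinct peaks, of which 10 held at least 10 tags and 8 held 3, the fewest of any peak. The 250 bases upstream of 6 of these gene starts are printed because they show the DNA under the strongest promoter peaks, an olfactory receptor promoter with no CpG and a CpG-rich start shared by divergent genes. Each is read 5′ to 3′ on the gene's strand, and the capitals mark the 53 bases, 1 fragment length, centred on the summit.

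Gm12002: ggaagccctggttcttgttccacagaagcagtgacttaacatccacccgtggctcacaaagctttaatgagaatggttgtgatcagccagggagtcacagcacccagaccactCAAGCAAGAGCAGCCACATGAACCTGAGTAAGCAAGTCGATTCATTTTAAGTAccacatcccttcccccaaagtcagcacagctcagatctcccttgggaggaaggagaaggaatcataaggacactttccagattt
Gm40036: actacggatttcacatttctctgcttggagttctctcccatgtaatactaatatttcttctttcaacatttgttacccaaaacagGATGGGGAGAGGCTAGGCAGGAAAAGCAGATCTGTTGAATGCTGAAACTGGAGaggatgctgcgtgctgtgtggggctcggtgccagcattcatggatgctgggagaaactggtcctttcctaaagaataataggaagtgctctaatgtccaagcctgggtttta
Acsl6: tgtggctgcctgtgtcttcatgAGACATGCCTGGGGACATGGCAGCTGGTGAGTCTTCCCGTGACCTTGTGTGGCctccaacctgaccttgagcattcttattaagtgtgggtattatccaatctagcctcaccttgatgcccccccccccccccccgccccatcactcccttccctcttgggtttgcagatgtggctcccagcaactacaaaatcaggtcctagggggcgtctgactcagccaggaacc
Zfp287: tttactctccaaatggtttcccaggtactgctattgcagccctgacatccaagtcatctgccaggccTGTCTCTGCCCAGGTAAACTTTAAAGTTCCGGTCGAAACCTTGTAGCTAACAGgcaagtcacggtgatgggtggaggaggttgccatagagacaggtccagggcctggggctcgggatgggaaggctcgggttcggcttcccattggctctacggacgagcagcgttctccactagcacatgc
Olfr1383: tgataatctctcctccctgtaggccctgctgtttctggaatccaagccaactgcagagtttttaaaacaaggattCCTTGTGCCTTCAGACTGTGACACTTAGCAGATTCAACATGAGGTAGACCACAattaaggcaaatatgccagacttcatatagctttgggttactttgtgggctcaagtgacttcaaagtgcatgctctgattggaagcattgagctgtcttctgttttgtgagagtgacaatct
Clk4: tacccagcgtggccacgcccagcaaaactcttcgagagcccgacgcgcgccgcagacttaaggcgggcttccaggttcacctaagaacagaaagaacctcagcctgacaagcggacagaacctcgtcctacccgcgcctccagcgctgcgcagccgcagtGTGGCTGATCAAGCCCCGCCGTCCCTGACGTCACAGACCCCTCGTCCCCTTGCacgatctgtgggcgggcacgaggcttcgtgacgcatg

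The Gm12002 sequence is chr11:12314237-12314486 on the plus strand, upstream of a listed start of this lncRNA gene. Its peak held 83 tags with a fold enrichment of 852 over input, and the summit lay 111 bases before that start. By the gene table the summit was inside both Gm12002, 736 bp from its nearer end, and Cobl, which encodes an actin nucleator. The Gm40036 sequence is chr11:68561985-68562234 on the plus strand. The peak at this lncRNA gene held 101 tags with a fold of 685, its summit 139 bases before the start.

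The Acsl6 sequence is chr11:54303574-54303823 on the plus strand, and Acsl6 encodes an acyl-CoA synthetase for long-chain fatty acids. Its peak held 27 tags with a fold of 554, and a run of 17 C lies downstream of the summit. The Zfp287 sequence, for a zinc finger gene, is chr11:62731897-62732146 on the minus strand, with a peak of 16 tags and a fold of 434. Acsl6 and Zfp287 were chosen for mention after their values were seen. The Olfr1383 sequence is chr11:49523475-49523724 on the plus strand, with 9 tags and a fold of 359. It holds no CpG and has a GC content of 43.2%.

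The Clk4 sequence is chr11:51262864-51263113 on the plus strand. Clk4 encodes a kinase that phosphorylates the SR splicing factors of nuclear speckles, and its start lies beside that of the divergent gene BC049762. The peak shared by these starts held 15 tags with a fold of 266. The Clk4 stretch holds 25 CpG and has a GC content of 64.4%, so the promoter peaks include both CpG-rich and CpG-poor DNA. Over all windows of chromosome 11 outside the block, the 29 with a summit had a median of 5 CpG (quartiles 3 and 16), against 10 (3 and 23) in the 2126 without. Median GC content was 55.3% in both sets. On the other autosomes in the table the medians were 6 CpG with a summit and 7 without. At least 10 CpG were present in 11 of the 29 windows with a summit (37.9%) and in 50.4% of the windows without.

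The strongest of the peaks at microRNA genes exceeded most of the 27 promoter peaks in tags and in fold. The summit of a peak with 39 tags, a fold of 335 and an implied input (defined below) of 1.96 lay inside Mir103-1, at chr11:35782396-35782481 on the plus strand. This gene lies in the region of Pank3, a pantothenate kinase gene of coenzyme A synthesis. Its main mature product is shown with the seed, bases 2 to 8, in capitals.

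mmu-miR-103-3p: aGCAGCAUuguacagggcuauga

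Of 77 microRNA genes of chromosome 11 outside the block, 14 had a summit within 1 kb (18.2%, Wilson interval 11.2 to 28.2), against 10.1% of 835 on the other 18 autosomes. Within 5 kb the count was 33 (42.9%), against 35.3%. The 14 include Mir497 and Mir497b, which overlap on opposite strands and share 1 peak of 4 tags. Besides Mir103-1, Mir7115 (11 tags, fold 281) and Mir6925 (10 tags, fold 213) had a peak of at least 10 tags within 1 kb, and these microRNAs were named after their values were seen.

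Once the block was set aside, chromosome 11 held peaks at about the density of a typical autosome. The 3551 summits spread over 116.98 Mb gave 30.4 per Mb (exact 95% Poisson interval 29.4 to 31.4). The other 18 autosomes ran from 19.6 on chromosome 14 to 61.3 on chromosome 15, with a median of 29.6. Chromosome 11 outside the block thus ranked 8 of 19, at 1.03 times the median of the others, where the whole chromosome with its block had 42.4 per Mb.

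The number of tags followed the number of peaks. The peaks held 27595 tags, or 235.9 per Mb, against 144 to 559 and a median of 229 on the other autosomes, a ratio of 1.03. They covered 585 kb and held 7.77 tags on average, against a median of 7.63 over the other autosomes. Without the peaks inside the single gene Sfi1, described below, tag density was 223.5 per Mb and the ratio 0.977. Those peaks were removed from chromosome 11 only, which lowers the ratio by construction. Without the 10 peaks of most tags on each autosome, the tag ratio was 1.025. Against the mean of the other autosomes in place of their median, the summit ratio was 0.985 and the tag ratio 0.965. Neither density can therefore be placed above or below the other autosomes.

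The peaks were mostly weak. The median peak was 134 bp long and held 4 tags, with a summit height of 3. There were 1365 peaks with 3 tags (38.4%, Wilson interval 36.9 to 40.1), 1490 with 4 to 9, 587 with 10 to 29 and 109 with 30 or more (3.07%). The 109 strongest held 21.5% of the tags and the 1365 weakest 14.8%. On the other 18 autosomes together, 37.9% of peaks had 3 tags and 3.31% had 30 or more. The authors' fold enrichment had a median of 151, with 76.5 and 430.05 at the 5th and 95th percentiles. Fold values are large because the background is small: at the genome mean input, a summit 3 tags high gives a fold of 179.5.

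The local input level can be recovered from these values. The summit height divided by the fold, over the mean background of the genome (0.0167 tags for each fragment length), is called the implied input and is in multiples of that mean. It is at least 1 by construction, apart from rounding. Over the 3551 peaks its median was 1.24 and its 95th percentile 1.90, and 11.8% of peaks lay at the genome mean itself. The medians of the other autosomes ran from 1.13 to 2.37, and chromosome 11 outside the block ranked 13 of 19. Inside the block the median was 23.6 and the median fold 18.9.

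Across the other 18 autosomes, summit density rose with median implied input, and chromosome 11 outside the block lay above that line. At an implied input of 1.24 a straight line through the 18 others gave 25.5 summits per Mb, where 30.4 were counted. The difference, 4.86 per Mb, was larger than that of any of the 18 chromosomes from their own line (-3.63 to 2.68, the highest being chromosome 9). Chromosome 11 took no part in the fit, while the 18 others shaped the line from which they are measured. The differences are therefore not fully alike. A block of high input was also removed from chromosome 11 and nothing from the others. Chromosomes are not replicates, so no test is given. Without chromosomes 15 and 9, those of highest input, the difference was 5.04.

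Gene density moved with the same difference. Chromosome 11 outside the block had 12.7 protein-coding genes per Mb, the highest value after the 13.9 of chromosome 7, against a median of 7.58 for the others. Over the 18 other autosomes the difference from the line and coding genes per Mb had a Pearson r of 0.601 and a Spearman rho of 0.626. All points share 1 treatment and 1 input. With coding genes per Mb as a second predictor the difference was 2.48 per Mb, and 1 other autosome lay further above. With the 75th percentile of implied input in place of the median it was 3.81, and 2 others lay further above. The line and its alternatives were added after the data were seen.

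**Figure D1:**
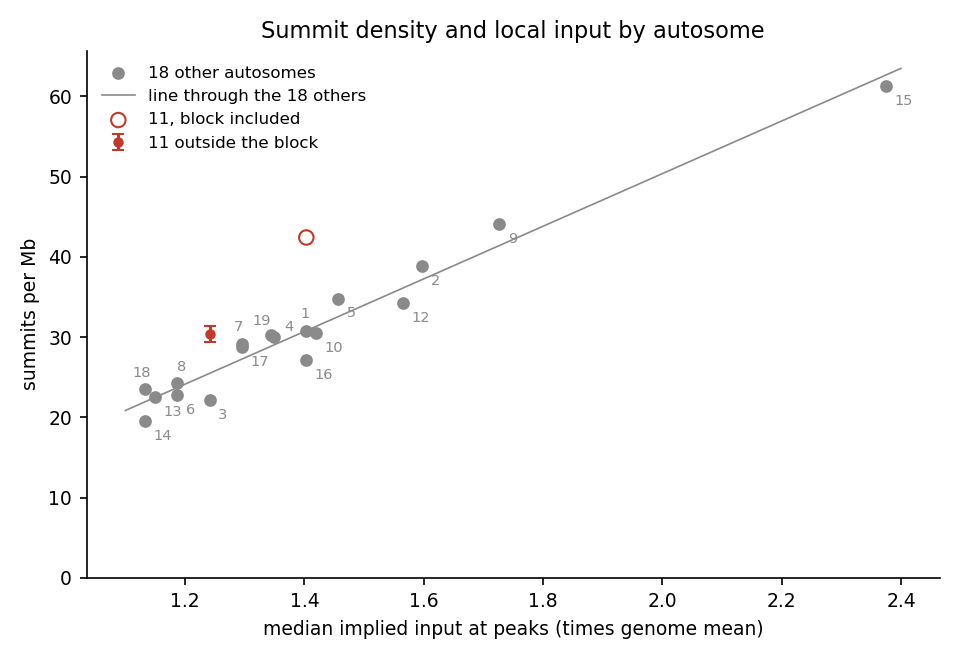
Summits per Mb (vertical axis) against the median implied input at peaks in multiples of the genome mean (horizontal axis), 1 point for each autosome, with the line through the 18 others and the exact 95% Poisson interval on chromosome 11 outside the block. The filled red point lies at 30.4 summits per Mb where the line gives 25.5, and the open red point shows the whole chromosome at 42.4.

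The dense block ended well inside its nominal edges. In bins of 100 kb, a median implied input of at least 10 was found in 23 of the 50 bins of the block, in a run from 101.8 to 102.1 Mb and another from 103.1 to 105.1 Mb. These 2.3 Mb held 1536 of the block's 1624 summits. The other 2.7 Mb of the block held 88 summits, or 32.6 per Mb, with a median implied input of 1.22 and a median fold of 151, values close to those of the chromosome outside it. The 1 Mb on each side outside the block held 80 summits in all, or 40.0 per Mb, with a median input of 1.20.

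Peaks on the 2 sides of each edge were alike in tags, fold and input. The last 5 peaks before the lower edge held 3 to 10 tags with implied inputs of 1.07 to 1.51, and the first 5 past it held 3 to 11 tags with inputs of 1.04 to 1.94. Of the former, the peak nearest the edge, at chr11:100963870-100964053, held 10 tags with a fold of 353. The last 5 peaks inside the upper edge held 3 to 14 tags with inputs of 1.03 to 1.57, and the first 5 outside it 3 to 15 tags with inputs of 1.19 to 1.46. Among these the peak of 15 tags at chr11:106036725-106036977 lay in the promoter window of Dcaf7, a WD-repeat protein. With 1 Mb more left out on each side of the block, the chromosome held 30.2 summits per Mb.

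Along the chromosome, density was uneven on a scale of megabases. The 98 Mb before the block held 30.4 summits per Mb, counted from 3 Mb, and the 15.98 Mb after it held 35.7 (Poisson interval 32.8 to 38.7). Median implied inputs were 1.24 and 1.21. Counted from 3 Mb, all of chromosome 11 outside the block held 31.2 per Mb. The 30.4 given above for the whole includes the first 3 Mb, which held no summit. Coding genes per Mb were 12.5 before and 16.5 after. In stretches of 10 Mb, the sparsest was 10 to 20 Mb, with 16.2 summits per Mb, an implied input of 1.11 and 2.3 coding genes per Mb. The densest was 50 to 60 Mb, with 38.1 summits, an input of 1.24 and 17.4 coding genes. The stretch from 30 to 40 Mb was nearly as dense, at 37.3, with only 4.7 coding genes per Mb and the highest input of these stretches, 1.45.

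The 113 full windows of 1 Mb held 8 to 63 summits, with a median of 31. The densest was 32 to 33 Mb, with 63 summits (Poisson interval 48.4 to 80.6) and an input of 1.57, which holds Fbxw11, a subunit of an SCF ubiquitin ligase, and Stk10, a kinase of lymphocytes. It was followed by 35 to 36 Mb with 62, where the guidance ligand gene Slit3 lies, 52 to 53 Mb with 55 (Fstl4), 33 to 34 Mb with 54 (Kcnip1) and 115 to 116 Mb with 53. The last of these overlaps 44 coding genes, Grb2 among them, an adaptor of receptor kinase signalling, and its input was 1.19.

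The sparsest window, 14 to 15 Mb, held 8 summits (Poisson interval 3.45 to 15.8) and 1 coding gene, Pom121l12. Windows at 13 to 14 Mb (10 summits), 39 to 40 Mb (11) and 92 to 93 Mb (11) overlap no coding gene, and 41 to 42 Mb held 12 summits. Their median inputs were 1.00 to 1.20. The highest median input of any window was 1.66, so none came near the values in the block. Over the 113 windows, summits had a Spearman rho of 0.468 with implied input and 0.530 with coding genes, and all windows share the same libraries. The longest stretch between neighbouring summits was 455623 bp, at chr11:91208087-91663710, and contains Kif2b, a kinesin gene. The median spacing was 19485 bp, against 17298 bp on the other autosomes, and 31.2% of neighbours lay within 10 kb, against 35.6%.

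**Figure D2:**
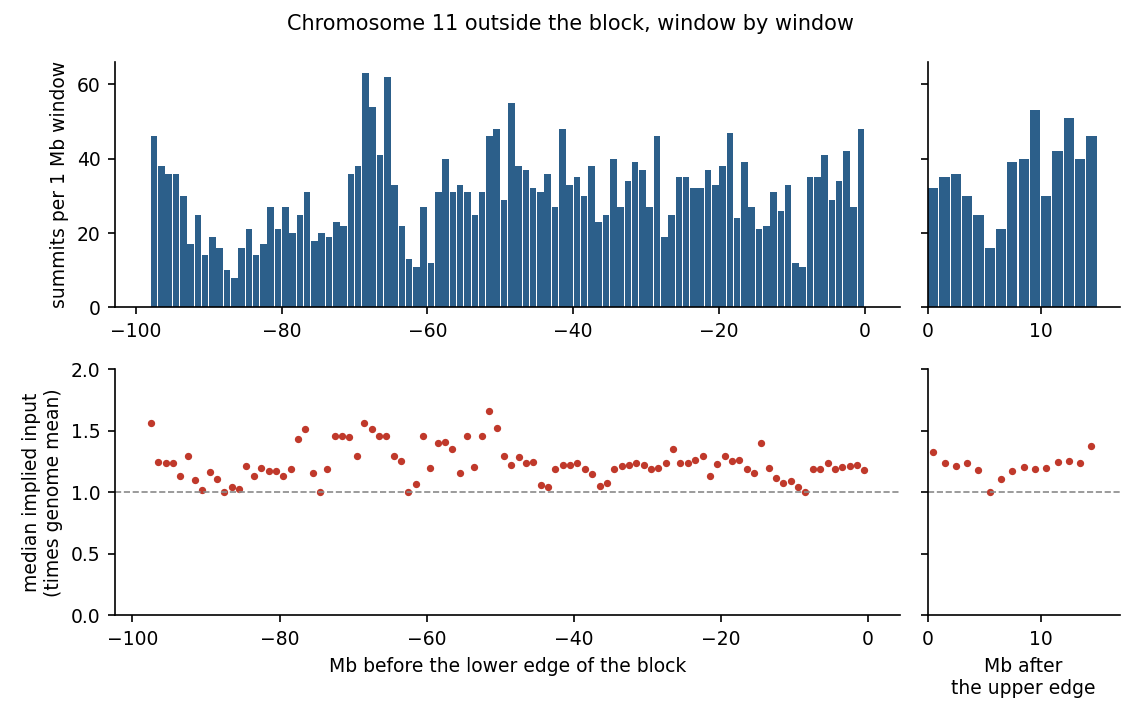
Summits in each 1 Mb window (upper panels) and their median implied input in multiples of the genome mean (lower panels; the dashed line marks 1), against the distance in Mb from the lower and the upper edge of the block. Counts vary from 8 to 63 while no window's median input exceeds 1.66.

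A single gene held the peaks of highest input. Sfi1 (chr11:3131850-3203347, gene ID 78887) encodes a centrin-binding protein of the centrosome and lies at the start of the annotated chromosome. Its body held 19 peaks, from 3158598 to 3200028, with 1446 tags: 0.535% of the peaks and 5.24% of the tags. Their implied input ran from 10.1 to 46.1 with a median of 33.2, where the block peaks had a median of 23.6, an upper quartile of 27.8 and a highest value of 41.4, and their folds from 10 to 40.7. The largest, chr11:3194472-3197002, was 2531 bp long and held 378 tags with a fold of 32.2, rank 76184 of the list. The next 4 by tags, all inside Sfi1, held 180, 161, 148 and 119, and the same 5 were the longest peaks.

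Outside Sfi1 no peak held more than 101 tags. Of the 20 peaks with an implied input above 4, 19 were in Sfi1, and the other lay in Tmem238l (chr11:66958097-66958255, 24 tags, input 11.5). Sfi1 also held 9 of the 34 peaks longer than 500 bp. Because of it, the 7 Mb from 3 to 10 Mb had a mean of 13.3 tags per peak, where the other stretches of 10 Mb had 6.83 to 8.07. The part of the high input in these tag counts was not tested.

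**Figure D3:**
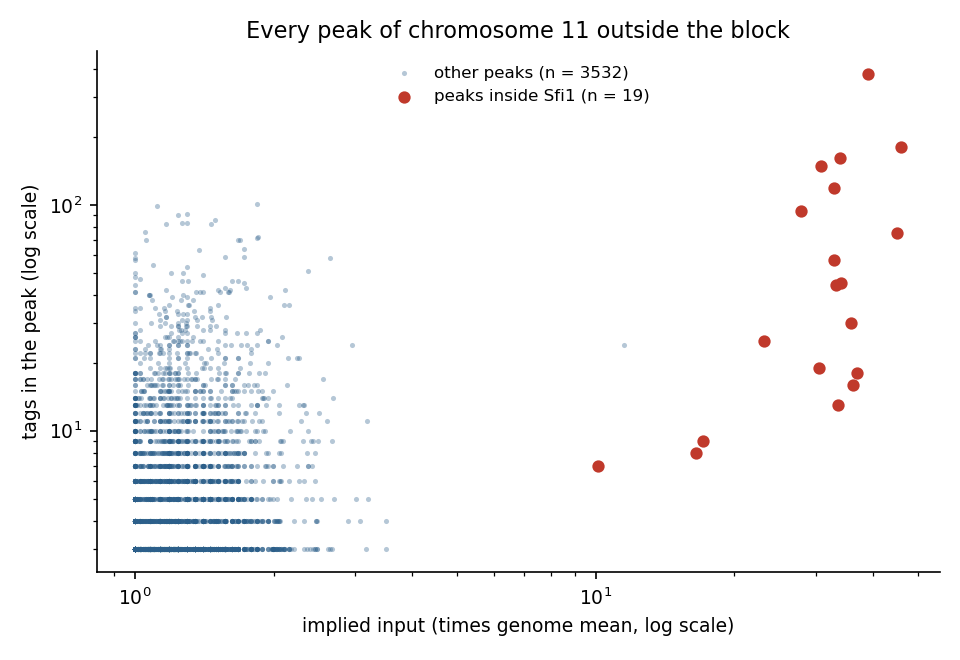
Tags in each of the 3551 peaks against its implied input in multiples of the genome mean, both on log scales, with the 19 peaks inside Sfi1 in red. The Sfi1 peaks sit at inputs of 10.1 to 46.1, and 1 other peak, at 11.5, lies above 4.

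By fold, the 10 strongest peaks lay at inputs close to the genome mean, 6 of them inside a gene. A ranking by fold favours low inputs by construction, and the median input of all peaks described here was 1.24. The highest, chr11:61767996-61768422, held 57 tags (Poisson interval 43.2 to 73.9) with a fold of 1137, rank 9 of all 77823, and lay 6080 bp from Prpsap2, a gene of nucleotide synthesis. A peak of 76 tags and fold 1081 lay in Gprc5c, an orphan G protein-coupled receptor gene, and one of 50 tags and fold 1077 lay 23556 bp from the nearest gene, at chr11:89348520-89348854. Myh10, which encodes the heavy chain of nonmuscle myosin IIB, held a peak of 91 tags and fold 1017, 43124 bp from its nearer end. A peak of 82 tags and fold 975 lay 5663 bp outside Prkca, the gene of protein kinase C alpha.

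Exoc7, a subunit gene of the exocyst, held a peak of 99 tags and fold 964. Ankrd36 followed with 48 tags and a fold of 958, and 1700012B07Rik with 41 tags and a fold of 898. The remaining peaks of the highest 10 were an intergenic peak of 90 tags and fold 868, at chr11:29673645-29674173, and the Gm12002 peak within Cobl printed above. These 10 peaks had inputs of 1.00 to 1.30, and 4 of them lay outside any gene, against 61.3% of all 3551 inside one. Further protein-coding genes among the 15 with the highest fold were Shisa6, an auxiliary subunit of AMPA receptors (838), and Fam222b and Traf4, which share a peak between them (819). Tha1 followed with a peak in its flank (776). Cdc42ep4, an effector of the GTPase Cdc42 (770.1), the guidance ligand Ntn1 (769) and Actr2, a subunit of the Arp2/3 actin complex (759), came next. The neutral amino acid transporter Slc1a4 (741) and the AMPA receptor subunit Gria1 (739, 39 tags) closed the 15. Pipox, the gene of a peroxisomal oxidase, tied with Gria1 at 739 with 83 tags.

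Summits fell in genes more often than the length of genes alone would give, as on the other autosomes. Of the 3551, 2175 lay inside an annotated gene (61.3%), where genes cover 52.8% of the length, a ratio of 1.16, rank 9 of 19. Within 1 kb of a gene end lay 363 (10.2%, Wilson interval 9.27 to 11.3), where such positions make up 7.89% of the length, a ratio of 1.30 and rank 10. The other autosomes had median ratios of 1.15 and 1.30. A further 1727 (48.6%) lay deeper in protein-coding genes, 226 (6.36%) in other genes and 1235 (34.8%) outside both. The classes were alike in strength: median fold was 154 near ends, 149.9 in coding genes, 166 in other genes and 151 outside, at median inputs of 1.25, 1.26, 1.20 and 1.21.

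Of 1485 protein-coding genes outside the block, 894 had a summit inside them or at most 5 kb away (60.2%, Wilson interval 57.7 to 62.7), against 12001 of 18956 (63.3%) on the other autosomes, rank 13 of 19. Genes with a summit had a median length of 22.4 kb and those without 6.95 kb. Within classes of length the shares lay inside the range of the other autosomes, and are set here against those autosomes together. They were 39.4% against 37.8% for genes under 10 kb and 64.6% against 63.2% from 10 to 30 kb. From 30 to 100 kb they were 80.4% against 83.6%, and from 100 kb upward 99.1% against 98.5%. For genes of 30 to 100 kb the other autosomes ran from 68.5% to 94.3%, and 14 of the 18 lay higher. In the other classes of length 4 to 9 lay higher. The median coding gene of chromosome 11 outside the block was 14.4 kb long, against a median of 18.2 kb over the other autosomes.

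A single summit was found at 412 genes, and 106 had 5 or more. The 10 with the most were long genes apart from Sfi1. Asic2, an acid-sensing ion channel gene of 1088 kb, had 51, Slit3 40, Tenm2, an adhesion gene of synapses, 37, and Fstl4 30. Kcnip1, which encodes a potassium channel partner, had 28. Dock2, an activator of Rac in leukocytes, Sgcd, a sarcoglycan, and Msi2, an RNA-binding protein of progenitor cells, had 25 each, and Rbfox3, a splicing factor of neurons, had 23. Counted per Mb of gene and flanks, these ran from 24.3 in Sgcd and 29.8 in Tenm2, near the 30.4 of the chromosome, to 74.9 in Kcnip1. Sfi1, with 19, stood apart at 233 per Mb.

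In the following lists, the share of genes with a summit is set beside the 60.2% of all coding genes outside the block, and the median best fold of the genes with a summit beside the 193 of all 894. A summit is counted for a gene if it lies inside or at most 5 kb away. A best fold can thus come from a peak in the flank, as at Trp53, Med1, Clk4, Galk1, Sgsh, Hoxb1, Hoxb4 and Nprl3. It also did at the globins with a summit, Myh1, Myh3, Krt15, Krt19, Krt25, Il3, Ccl1, Ccl11 and the olfactory receptors named. The Nprl3 peak lay inside Mpg and the Sgsh peak inside Card14. No list was tested, and the order of the lists did not follow gene length throughout. A mixed list of 17 mostly long genes, many of them of neurons or cell adhesion, had the highest share, with a summit at 15, a median best fold of 359 and a median length of 298 kb. It also holds the transporter genes Abca8a and Abca9, the adaptor gene Grb10, and Kcnj2, which is only 10.7 kb long and had no summit. The GABA-A receptor cluster, the list with the next longest genes (71.4 kb), had a lower share than the background, and the alpha globin cluster, with the shortest (0.884 kb), a higher one. The highest folds were at Cobl, Asic2 (721, 86 tags), Sgcd (718, 35 tags) and Tenm2 (667, 32 tags).

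Among 25 breast cancer driver genes, 18 had a summit (72.0%), with a median best fold of 174. Their median length was 35.8 kb, and 80.4% of all coding genes of 30 to 100 kb outside the block had a summit. Nf1, a Ras inhibitor, held 10 summits, the best with 30 tags and a fold of 539. Bcas3 held 12 (best fold 479), Ppm1d, a phosphatase that acts on the p53 pathway, 1 (379), and Flcn, the folliculin tumour suppressor, 4 (353). Erbb2 and Trp53 each had a single summit with 3 tags, the fewest of any peak, and folds of 119 and 128. They fall outside the naming rule and were chosen after their values were seen. Around Erbb2, 14 of 20 genes of the human amplicon had a summit (median best fold 173). The highest folds were at Med1, a Mediator subunit (417, 29 tags), Neurod2, a neuronal transcription factor (388), Cdk12, a kinase of RNA polymerase II (321), and Pgap3 (239, 4 tags).

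Genes of RNA processing and chromatin had shares near the background. Of 15 splicing and RNA-binding genes 10 had a summit (median best fold 204), led by Rbfox3 (573, 41 tags), Msi2 (542, 25 tags), Prpf8, a core spliceosome component (403, 24 tags), and Clk4. Of 19 chromatin regulators 13 had one (median 222). They were led by Suz12, a subunit of Polycomb repressive complex 2 (415, 15 tags), Bcl11a, a repressor of fetal globin in humans (339), the corepressor Ncor1 (334) and the H3K27 demethylase Kdm6b (252).

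Of 11 genes of Wnt signalling 7 had a summit (median best fold 205). Nlk, a kinase that acts on TCF factors, had the highest fold (299), followed by Mks1 (239), a gene of the ciliary transition zone, Znrf3 (231), a ubiquitin ligase that removes Wnt receptors, and the ligand Wnt9a (205). Axin2, a target and inhibitor of the pathway, had none. Of 17 genes of lipid and sugar metabolism 12 had a summit (median 199.1). Fasn, fatty acid synthase, held the peak with the most tags of this list (71, fold 489), and Acaca, the acetyl-CoA carboxylase that acts before it, had a best fold of 475. Galk1, galactokinase, and Sgsh, a lysosomal sulfatase, followed with 360.4 and 293.

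Of 10 Hoxb genes, which pattern the body axis, 3 had a summit: Hoxb1 (416, 13 tags), and Hoxb3 and Hoxb4, which share a peak of 3 tags. Of 6 genes at the alpha globin cluster 5 had one, led by Nprl3 (268), but these came from only 3 best peaks, since Hba-a2 and Hbq1a share one and Hba-x and Hba-a1 another. Of 6 skeletal myosin heavy chain genes 4 had a summit, led by Myh13 (256), Myh2 (238), Myh1 (176) and Myh3 (96.4). Of 29 genes in a list of type I keratins and the neighbouring gasdermins 13 had one (median best fold 202). These were 11 of 26 keratins and 2 of 3 gasdermins, of which Gsdma is also counted around Erbb2. The highest folds were at Krt25 (598, 26 tags), a keratin of hair follicles, Krt19 (525, 22 tags), a keratin of simple epithelia and breast tumours, Krt12 (277) and Krt24 (224). The best peaks of Krt25 and Krt19 lay in the flanks, not inside the genes. Of the keratins of basal cells, Krt14 and Krt17 had no summit, while Krt15 had 1 (fold 202, 9 tags).

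Of 8 genes at the type 2 cytokine cluster and its neighbours 5 had a summit, or 3 of 6 without Rad50 and Kif3a, which are no immune genes. The highest folds were at the growth factor gene Il3 (446, 16 tags), the DNA repair gene Rad50 (323, 31 tags), the transcription factor gene Irf1 (191) and Kif3a (167), while Il4, Il5 and Il13 had none. Of 11 CC chemokine genes 3 had one, with 8 tags at Ccl7 and 3 tags at both Ccl1 and Ccl11. In a list of 10 genes, 0 of 6 interferon-inducible GTPases and 1 of 3 Nlrp inflammasome genes, Nlrp1a (fold 119.7, 4 tags), had a summit. The other member, Xaf1, which encodes an inhibitor of XIAP and belongs to neither family, had a peak of 34 tags and fold 729.5. Of 4 genes of the GABA-A receptor cluster, which encode subunits of an inhibitory neurotransmitter receptor, 2 had a summit, the highest fold being at Gabrb2 (320).

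Of 83 olfactory receptor genes, which are short and clustered, 16 had a summit (19.3%), at a median gene length of 0.954 kb. The highest folds were at Olfr1386 (419, 11 tags), Olfr1383 (359), Olfr1377 (353, 18 tags) and Olfr1385 (350.2, 11 tags). Near-identical copies exist in this family and among the interferon-inducible GTPases, globins and chemokines. The handling of reads that match several copies was not given in the sources used here. These counts are therefore uncertain.

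**Figure D4:**
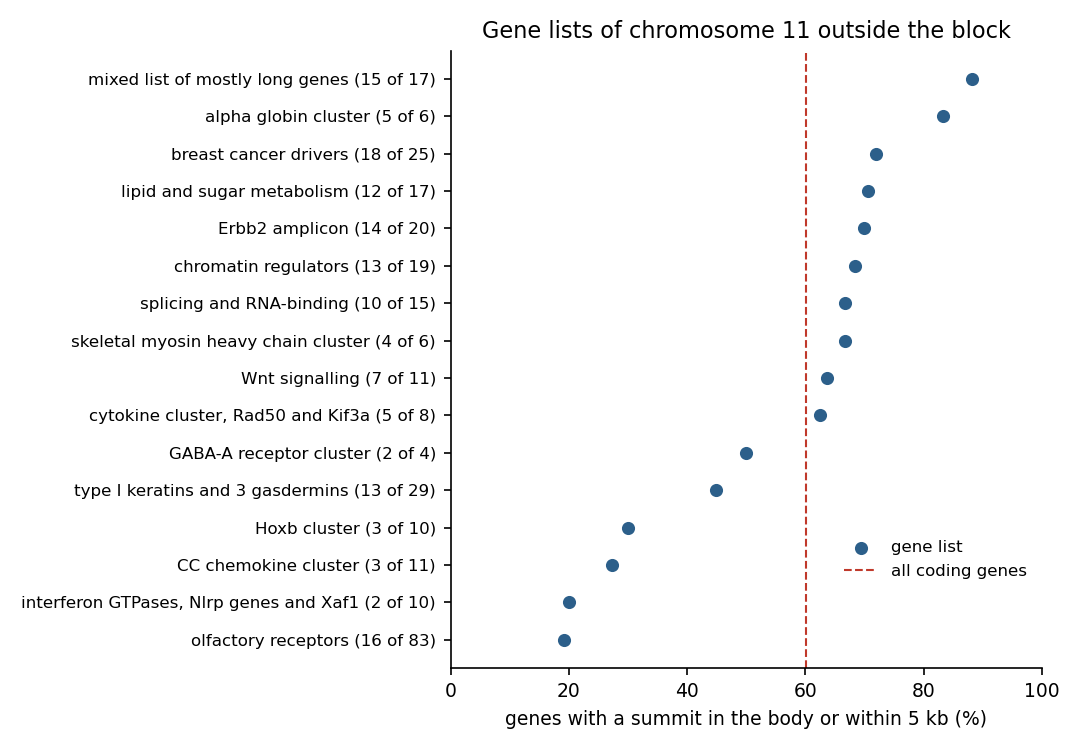
Share of the genes of each list with a summit inside or at most 5 kb away (horizontal axis, percent), with counts in the labels. The dashed line marks the 60.2% of all coding genes outside the block; the lists run from 19.3% for olfactory receptors to 88.2% for the mixed list of mostly long genes.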

How the data were processed

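ChIRP of Malat1 in 4T1-TGL cells was deposited as 1 peak list, called with MACS 1.4.4 per the file headers, on genome build mm10 (GRCm38) per the submitters' processing notes. The aligner was not given in the sources used here. Per the file headers the run used a p cutoff of 1e-05, tags of 25 bp, fragments of 53 bp and local backgrounds over 1 and 10 kb of input. Reads were 76 nt long, per the labels' protocols. Tags per peak are counts as deposited, of treatment tags in the interval. Fold enrichment is the ratio the authors' peak caller gave of summit height to local input. Summit height is a signal deposited by the authors, a pileup without scaling. The deposited score, 10 times the -log10 of the MACS p, was used only to choose peaks in alternatives. The deposited false discovery rate in percent was 0 for every peak.

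The implied input was computed as height over fold over the genome mean background, with 2.7 gigabases as genome size. Chromosome length ended at the last gene or summit. Genes came from the RefSeq table of GRCm38.p6, which has no strand or exons. Of its genes on autosomes, 333 placed before 3 Mb or in a second run of a chromosome were left out, 43 of them on chromosome 11, and 46709 were used. Of the listed genes, 26 were left out as not placed on chromosome 11 outside the block. The planned GC content of peaks was not run, since no genome was used here.

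The members, the lists and the naming rule were chosen with earlier results of these data known. The rule named the 10 peaks with most tags, the 10 with highest fold, the 5 longest, the 5 nearest each edge on either side, the 5 densest and 5 sparsest windows, the 15 genes with the highest fold, the 10 with most summits and up to 4 genes of each list. Genes named as holding no summit, and others outside the rule, were chosen after their values were seen. No test was run, since each group has 1 library and only the merged list was used. Intervals are Wilson for shares and exact Poisson for counts, at 95%, and treat tags and peaks as independent, which PCR reads without molecular identifiers are not. The alternatives changed the score or tag minimum, input, peak length, block edges, gene distances, chromosome length, reference value and line. The counting of densities, covered positions and interval lengths, and the confidence intervals, were tested on simulated data. The other steps were not. Python 3.11.15, pandas 2.3.3, numpy 2.4.6 and scipy 1.17.1 were used.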

Additional observations from a re-analysis of the deposited data

How the results depend on the processing

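Of 74 values recomputed for 9 results, 48 stayed within the counting interval of the reported value and 26 moved beyond it. The summit ratio, 1.03 as reported, fell below 1 in 1 of its 9 alternatives, and the tag ratio, also 1.03, in 3 of its 11. With the block included, the summit ratio was 1.43, the tag ratio 3.24, median implied input 1.403, median fold 115, the 3-tag share 27.1%, the share inside genes 64.5% and the density above the input line 11.6 per Mb. With only peaks scoring at or above the median of the list, the tag ratio was 1.04, input 1.23, fold 213, the 3-tag share 3.56%, the coding genes with a summit 41.5% and the density above the line 2.24 per Mb. With at least 4 tags, fold, coding genes with a summit and density above the line were 190.2, 47.0% and 3.26 per Mb. Against the mean of the other autosomes the summit ratio was 0.985 and the tag ratio 0.965. The summit ratio was 1.08 for peaks with an implied input below 2. The tag ratio was 0.993 without peaks longer than 500 bp and 0.977 without those inside Sfi1, an alternative chosen after seeing the data. The Sfi1 alternative removed peaks from chromosome 11 only. Near gene ends lay 5.32% of summits within 500 bp and 32.4% within 5 kb, and 45.0% of coding genes held one when flanks were left out. The density above the line was 3.81 per Mb with the 75th percentile of input and 2.48 with gene density as second predictor. The cause of these movements was not tested, except that stricter peak sets and narrower distances hold fewer peaks by construction. No paired analysis was possible because only 1 merged treatment was compared with 1 input.

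With 851227 tags, a peak could hold as few as 3, and 38.4% of those described did. Absence of a peak says only that none was called at this depth. Which pull-downs contributed to a peak, and whether it was also found with the Lacz probes, was not analysed here. Lengths may include unsequenced gaps.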
